A study of Mus musculus with 54 samples.

Results

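The clustered histone genes are the 68 rows, of 20036 in the deposited expression table, whose symbols begin with Hist1h, Hist2h, Hist3h or Hist4h. They were chosen by symbol alone, without a measured value, although the family was picked with earlier results of these data known. They comprise 6 H1, 18 H2A, 19 H2B, 12 H3 and 13 H4 genes, and all 68 reached 1 TPM in at least 2 libraries, so none was lost to the filter on low values. RNA was sequenced from mouse embryonic stem cells (ESC), epiblast-like cells (EpiLC) and day 2 primordial germ cell-like cells (PGCLC) of 9 lines, with 2 libraries in each of 27 groups. The lines were wild type (WT), those labelled Ovol1KO, Ovol2KO, Ovol3KO and TKO, and those labelled Cdh1-Tg, Ovol2a/2b-Tg, Ovol2b-Tg and Ovol2a-Tg, and the labels give a C57BL/6 X 129/SvJ strain for all of them. Cdh1 is the E-cadherin gene, and the Ovol genes are known to code for transcription factors with zinc fingers. The labels used here do not spell out the alleles of TKO, the promoters of the transgenes, the background of the transgenic lines or the number of clones, and nothing says that the 2 libraries of a group came from separate cultures, so p-values measure the spread between these libraries only.

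Histones H2A, H2B, H3 and H4 form the core of the nucleosome, and H1 binds the linker DNA between nucleosomes. Most clustered histone genes are transcribed in S phase, when new chromatin is assembled. Their messenger RNAs normally end in a conserved stem-loop, bound by the stem-loop binding protein Slbp, in place of a poly(A) tail, while some members also give polyadenylated transcripts from sites beyond the stem-loop. The libraries here were made from poly(A)-selected RNA, so the values are those of histone transcripts that were retained by that selection, not of total histone messenger RNA. A difference between groups can therefore lie in the amount of transcript, in its 3′ end or in the share of cells that carry it, and these cannot be told apart in bulk samples, as fewer cells of a type cannot be told apart from less RNA per cell.

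In the GENCODE vM21 annotation of GRCm38, 54 members lie on chromosome 13 between 21715763 and 23934851, 10 on chromosome 3 between 96219865 and 96270132, 3 on chromosome 11 between 58948920 and 58956830, and Hist4h4 on chromosome 6 between 136801553 and 136804415. In 63 of the 68, the longest annotated transcript is a single exon. The histone stem-loop, 6 bases of stem on each side of a 4-base loop whose last base was left free, was searched on the sense strand after the stop codon. It was found in annotated transcripts of 33 members (48.5%). A search of all genes had no stop codon rule and took a match anywhere in a transcript. It gave 36 of 55341 genes (0.0651%), namely 33 members and 3 genes outside the family. The forms are shown because they mark the 3′ end that these messengers are known for, with the 6-base stem arms in capitals.
Stem-loop of 26 members: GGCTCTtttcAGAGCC
Stem-loop of 6 members: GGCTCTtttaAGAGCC
Stem-loop of Hist2h2ac: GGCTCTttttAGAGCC
The annotation ran on for more than 100 bases after the stem-loop in 16 of these members, and a poly(A) signal AATAAA followed it in 10. Hist1h1c, the H1 gene with the highest mean level, had 840 annotated bases and an AATAAA after its stem-loop, and the H2B gene Hist3h2ba had 169 bases and an AATAAA. None of the 13 H4 genes had a match, which says only that these letters are not in their annotated transcripts.

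Library depth ran from 2.012 M to 25.05 M reads (median 8.089 M), as recovered from the steps between TPM values. The sums of naive and EpiLC markers followed the library titles. The 5 naive markers summed to 758.8 to 1289 TPM in ESC and to at most 448.7 TPM elsewhere, and the 4 EpiLC markers to 1123 to 2447 TPM in EpiLC and to at most 386 TPM elsewhere. The 5 PGCLC markers did not set PGCLC apart from ESC: they summed to 36.9 to 337.9 TPM in PGCLC and to 1.41 to 35.6 TPM in EpiLC, but to 205.6 to 420 TPM in ESC. For 8 libraries, namely 2 of Ovol2a-Tg PGCLC and the 6 of Cdh1-Tg, the cell type tag differed from the title, and the title was used. Ovol2 messenger RNA in the line labelled Ovol2KO was 14.1 and 15.3 TPM in ESC, against 4.98 and 10.6 TPM in WT, and Ovol3 in the line labelled Ovol3KO was 9.09 and 11.3 TPM, against 6.47 and 11.4 TPM. In EpiLC, Ovol2 was higher in Ovol2KO (33.7 and 34.6 TPM against 9.51 and 12.7 TPM) and Ovol3 lower in Ovol3KO (5.66 and 5.80 TPM against at least 10.4 TPM). In PGCLC, Ovol2 was lower in Ovol2KO (4.74 and 6.68 TPM against 6.98 and 11.3 TPM), while Ovol3 in Ovol3KO spanned the WT values (7.25 and 9.84 TPM against 9.39 and 9.66 TPM). The level of the targeted messenger in these KO lines was thus not lower at every stage, and where the deletions lie was not analysed here. In TKO, Ovol2 was lower in PGCLC (0.835 and 1.52 TPM) but overlapped the WT values in ESC and EpiLC. In the lines with Ovol2 and Tg in their label, Ovol2 was at 69.9 to 4161 TPM over the stages, against at most 12.7 TPM in WT. Cdh1 was at 562 to 701 TPM in Cdh1-Tg, against at most 468 TPM in WT. The 2 columns of Ovol2b-Tg EpiLC carry no replicate number. Their reads differed by little more than sampling noise (chi-square per degree of freedom 1.053, against 1.297 to 10.75 in other pairs), and both were kept.

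By summed TPM, the histone signal of these libraries was almost wholly H2A. TPM is scaled by gene length, so levels can be set side by side between genes that do not share reads. Some H2A genes had equal reads in most libraries (below), so the same reads may enter their levels and their sum more than once. Averaged over the 54 libraries, the median level was 208 TPM for the H2A genes, 9.10 TPM for H4, 6.18 TPM for H3, 5.07 TPM for H2B and 1.59 TPM for H1. The median over all 68 members was 7.49 TPM, against 16.4 TPM over all 14416 genes tested. On average, 11 H2A genes exceeded 100 TPM and no member of another class did. The H2A genes made up 93.6% of the summed TPM of the family in the median library (80.6% to 97.6%), and the family made up 0.123% to 0.717% of all TPM.

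Hist1h2ap was the most abundant member, at a mean of 627 TPM. It ranged from 145 TPM to a median of 540 TPM and a maximum of 762 TPM over the 18 ESC libraries, from 503 through 709 to 769 TPM in EpiLC, and from 538 through 706 to 1111 TPM in PGCLC. The most abundant members of the other classes were Hist1h4i at 20.04 TPM, Hist1h2bc at 10.8 TPM, Hist1h3c at 9.97 TPM and Hist1h1c at 7.31 TPM. The most abundant member outside the Hist1 cluster was the Hist2 gene Hist2h2aa1 at 78.2 TPM, followed in the Hist3 cluster by Hist3h2a at 46.8 TPM, while Hist4h4 averaged 0.272 TPM. On average, 6 members stayed under 1 TPM, among them Hist1h1t, the testis H1, at 0.0770 TPM.

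Several members cannot be read as separate measurements. Hist1h2bq and Hist1h2br had equal reads in 54 of 54 libraries, as did Hist2h3c1 and Hist2h3c2. Hist1h2ao and Hist1h2ap had equal reads in 51 of 54, and so did Hist2h2aa1 and Hist2h2aa2. H2A transcripts shared a median of 73.0% of their 50-base words with other members, against 40.25% for members of the other classes, so reads of 1 copy may be counted for another. Precision also differed widely. The median library held fewer than 10 reads for 25 members and more than 100 for 14.

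**Figure D1:**
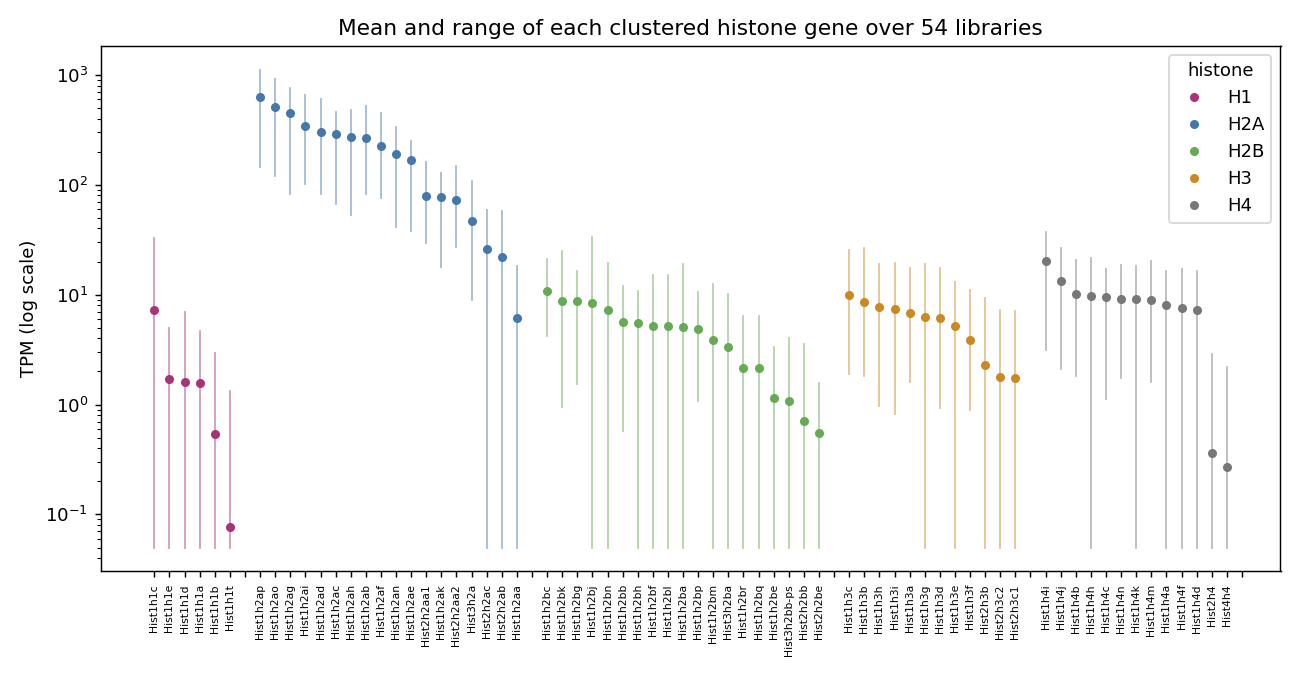
Mean TPM of each of the 68 clustered histone genes over 54 libraries (points, log axis) with the lowest and highest library (lines; a line that reaches 0.05 stands for a lowest value of 0), ordered by class and level. The H2A genes stand above the other classes, and Hist1h2ap has the highest mean, 627 TPM.

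The first question was how the family differed between WT stages. Differences are in log2(TPM + 1), a scale that understates the change of low genes, and a gene is called when limma's Benjamini-Hochberg adjusted p over all 14416 genes was under 0.05 and the difference was at least 1 (a doubling). The WT sums were 2932 and 1635 TPM in ESC, 4292 and 5040 TPM in EpiLC, and 4854 and 6385 TPM in PGCLC. The ESC libraries were the lowest in WT, and they differed from each other by 1.79 times.

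From WT ESC to WT EpiLC, 28 of 68 members rose and 0 fell, where 9.33% of all genes rose and 11.2% fell (20.6% called in either direction). The members' median difference was 0.95, or 0.86 with 3 genes at 0 in 1 group set to their bounds, against -0.01 for all genes. The rises comprised 11 H2B, 9 H2A, 4 H3, 3 H4 and 1 H1 gene. With limma-voom on recovered reads, a fit of read numbers in place of TPM, 25 rose and 0 fell, and 38 members had an unadjusted p under 0.05 in the main fit. The count rested on the WT ESC libraries. It was 8 without WT ESC replicate 2, the shallowest WT library, 18 without WT EpiLC replicate 2, and 35 without WT ESC replicate 1.

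The H2B genes led this comparison. Hist1h2bj was at 1.69 and 0 TPM in WT ESC, 12.2 and 12.3 TPM in EpiLC, and 8.84 and 14.7 TPM in PGCLC. It was low in both ESC libraries without overlap with the other stages, and rose by 3.02 ± 0.53 (log2, SE; limma adjusted p = 1.1e-05) into EpiLC. Hist1h2ba, known as the testis-specific H2B, was at 0.839 and 0 TPM in ESC and at 9.45 and 6.68 TPM in EpiLC, a rise of 2.72 ± 0.60. Hist3h2ba was at 0 TPM in both ESC libraries and at 7.57 and 6.24 TPM in EpiLC. Against the level that 3 reads would give in the ESC libraries (4.51 TPM), it was at least 1.53-fold higher in EpiLC. The 6 and 24 reads behind its EpiLC values show how few reads carry such calls.

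From WT EpiLC to WT PGCLC, 3 members rose and 5 fell. These shares of the 68 lay at or below those of all genes, of which 21.1% were called (13.5% higher and 7.62% lower), and the members' median of 0.12 lay beside 0.15 for all genes. The 3 rises were H1 genes, and the 5 falls were 4 H3 genes and the H1 gene Hist1h1b. Hist1h1c was at 1.61 and 1.99 TPM in WT EpiLC (2 and 12 reads) and at 23.2 and 29.1 TPM in PGCLC (40 and 67 reads). It rose by 3.27 ± 0.66 (limma adjusted p = 7.2e-05). Hist1h1d and Hist1h1e rose by 1.81 ± 0.62 and 1.21 ± 0.41. Both calls were lost without WT EpiLC replicate 1 (1.05 and 0.99) and also without WT PGCLC replicate 1 (1.58 and 0.90). Hist1h3c was at 19.4 and 15.8 TPM in EpiLC and at 4.39 and 5.24 TPM in PGCLC. It fell by 1.67 ± 0.37 on the log2 scale (limma adjusted p = 2.3e-04). Hist1h3a fell by 1.33 and Hist1h3i by 1.30, and Hist1h3f was also called lower. Hist1h1b, at 2.94 and 0.605 TPM in EpiLC and at 0 TPM in both PGCLC libraries, was called lower on 8 reads in all, and its call was lost without WT EpiLC replicate 1 (limma adjusted p = 0.19). The counts of members were 5 without WT EpiLC replicate 1 or WT PGCLC replicate 1 and 14 without WT EpiLC replicate 2. Quantile scaling, which shifted the median of all genes by -0.20 here, gave 2 rises and 10 falls.

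Between WT ESC and WT PGCLC, 37 members were higher in PGCLC and 0 lower, beside 14.5% and 10.8% of all genes (25.3% in either direction). They included all 18 H2A genes, 10 H2B, 6 H4 and 3 H1 genes, and no H3 gene. The members' median was 1.22 (1.20 with 4 genes at their bounds), against 0.11 for all genes. With limma-voom 31 were higher and 0 lower, and 41 had an unadjusted p under 0.05 in the main fit. Without WT ESC replicate 2 the count was 20. These 3 WT comparisons share their libraries pairwise, so their values are not independent of each other.

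The same stage differences averaged over all 9 lines, a comparison added after the WT results had been seen, rest on 18 libraries a stage. Counts at any size of difference, here and below, took a limma adjusted p under 0.05 with no minimum size. Between ESC and EpiLC, 63 of 68 members were higher at any size of difference and 0 were lower, beside 43.6% and 38.4% of all genes. Their median difference was 0.67, against 0.03 for all genes. The summed level of the family in EpiLC was 1.20 times that in ESC in the median line, against 2.04 times in WT. This sum was higher without overlap in 6 of 9 lines and lower without overlap in 1, Ovol2b-Tg (0.834 times). Only 5 members reached the called size of a doubling (17.2% of all genes were called, 9.5% higher and 7.66% lower). They were Hist3h2ba (2.14 ± 0.18), Hist1h2bj (1.43 ± 0.18), Hist3h2bb-ps (1.26 ± 0.17), Hist1h2bl (1.14 ± 0.26) and Hist1h3a (1.01 ± 0.12). The count was 17 without Cdh1-Tg, and also without both lines whose tags differ from the titles.

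Hist3h2ba is an H2B gene of the small Hist3 cluster (chromosome 11, 58948920 to 58949533). In ESC it ranged from 0 through a median of 0.157 to 2.04 TPM and was at 0 in 9 of 18 libraries. In EpiLC it ranged from 2.92 through 5.44 to 9.38 TPM, so no EpiLC library overlapped the ESC range. In PGCLC it ranged from 0 through 3.88 to 10.2 TPM. It was higher in EpiLC than in ESC in 9 of 9 lines, without overlap of the libraries of a line. Of all members, 23 were higher in EpiLC without overlap in 7 or more lines (28.2% of all genes) and 0 were lower (24.1%). These were 13 H2B, 8 H3, 1 H2A and 1 H4 gene.

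Between EpiLC and PGCLC, averaged over 9 lines, Hist1h1c rose and 5 H3 genes fell, with 18.2% of all genes called (11.1% higher and 7.1% lower). Hist1h1c rose by 2.55 ± 0.22 (limma adjusted p = 1.9e-12). Hist1h3c fell by 1.35 ± 0.12 on the log2 scale (limma adjusted p = 4.3e-12), Hist1h3a by 1.18, Hist1h3b by 1.12 and Hist1h3i by 1.02, and Hist1h3d was also called lower. At any size of difference 6 members were higher and 21 lower, beside 50.5% and 34.0% of all genes, and 9 of the 12 H3 genes were among the lower ones. The median of the H3 genes was -0.96, that of the H2A genes 0.10, that of all members 0.01 and that of all genes 0.12. Leaving out the lines with mismatched tags gave 6 called members again, and quantile scaling gave 11, limma-voom 12.

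Hist1h1c encodes a linker histone expressed in many tissues (chromosome 13, 23738808 to 23740367). In ESC it ranged from 0 through a median of 2.49 to 5.81 TPM, in EpiLC from 0 through 2.10 to 3.41 TPM, and in PGCLC from 5.98 through 15.3 to 33.0 TPM. Every one of the 18 PGCLC libraries lay above all 36 libraries of the other stages. The line differences between EpiLC and PGCLC ran from 1.61 to 3.28 and were above 0 in 9 of 9 lines. The median PGCLC library held 49.5 reads of the gene and the median EpiLC library 9. Hist1h1e was higher in PGCLC without overlap in 7 lines, and Hist1h1a and Hist1h1b were lower in 7. The summed H1 level in PGCLC was 2.53 times that in EpiLC in the median line, and higher without overlap in 9 of 9 lines. This sum includes Hist1h1c. Its median was 8.16 TPM in EpiLC and 20.9 TPM in PGCLC libraries, beside 2.10 and 15.3 TPM for Hist1h1c alone. A sum without Hist1h1c was not taken, so the ratio does not describe the other H1 genes.

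H3 genes went the opposite way in this step, lower in PGCLC than in EpiLC. Hist1h3c ranged from 3.39 through 7.09 to 17.7 TPM in ESC, from 8.56 through 15.3 to 25.2 TPM in EpiLC, and from 1.91 through 5.36 to 10.7 TPM in PGCLC. Its median was highest in EpiLC, and the EpiLC range overlapped those of both other stages. Within a line, all 9 lines had it lower in both PGCLC libraries than in both EpiLC libraries. The summed H3 level in EpiLC was 1.82 times that in ESC in the median line, with no overlap in 9 of 9 lines. In PGCLC it was 0.490 times that in EpiLC, lower without overlap in 8 of 9 lines. In all, 10 members were lower in PGCLC than in EpiLC without overlap in 7 or more lines (22.5% of all genes), namely 8 H3 genes with Hist1h1a and Hist1h1b, and 2 were higher (36.7%), Hist1h1c and Hist1h1e.

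**Figure D2:**
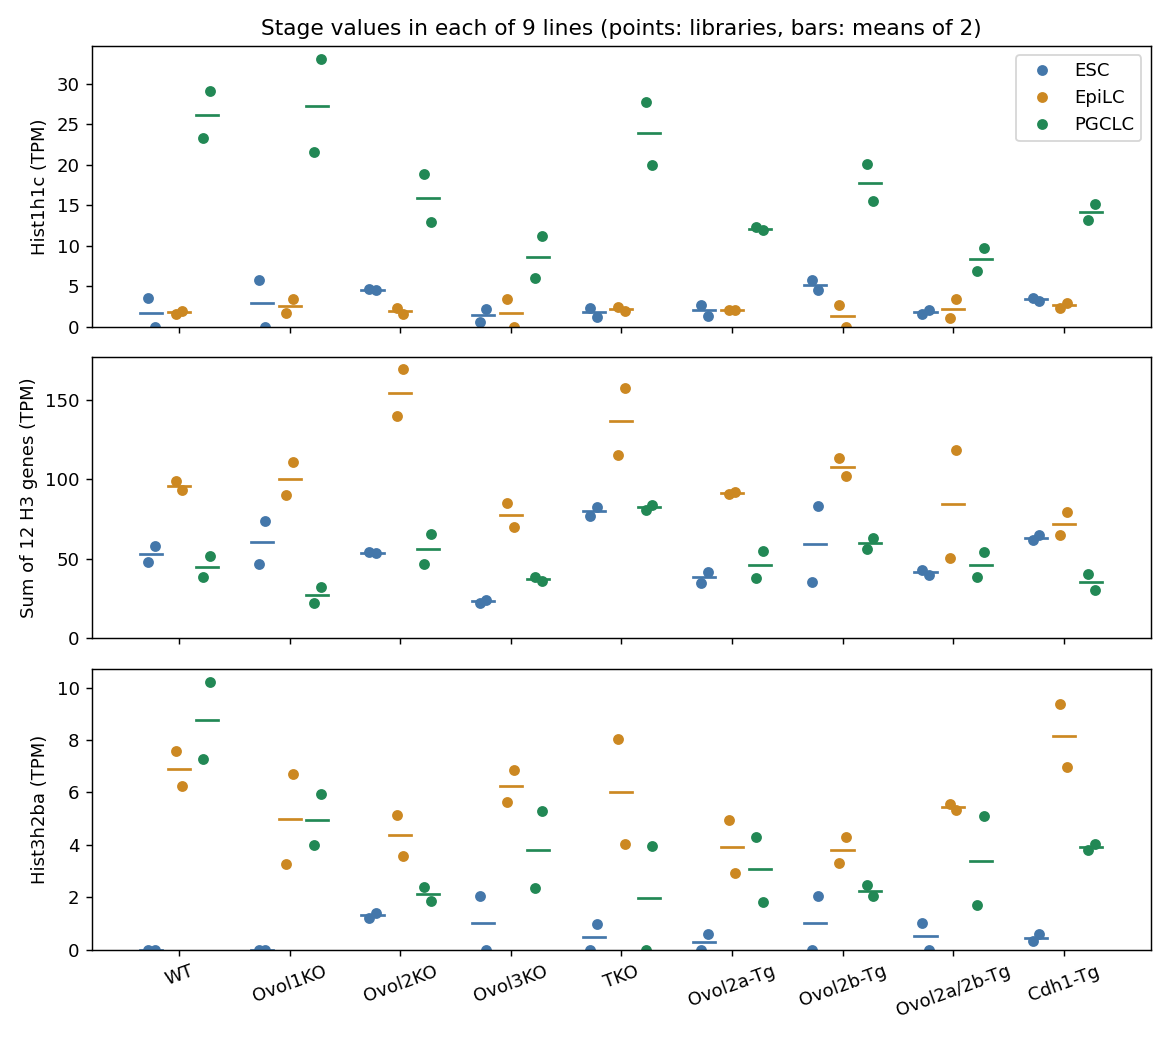
TPM of Hist1h1c (top), the sum of the 12 H3 genes (middle) and Hist3h2ba (bottom) in each line and stage, with points for libraries and bars for means of 2. Hist1h1c is high in PGCLC of every line, the H3 sum is highest in EpiLC of every line by its mean, and Hist3h2ba is at most 2.04 TPM in ESC.

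The remaining step, ESC to PGCLC over 9 lines, gave 10 higher members and 0 lower (23.0% of all genes called, 14.4% higher and 8.55% lower), with 50 higher and 2 lower at any size (52.5% and 33.5% of all genes). Hist1h1c (2.34 ± 0.22), Hist3h2ba (1.57 ± 0.18) and Hist1h4h (1.21 ± 0.21) led, and 6 of the 10 were H4 genes. Quantile scaling gave 2 called members in place of 10. Hist1h4h went from a median of 5.54 TPM in ESC to 9.30 TPM in EpiLC and 11.6 TPM in PGCLC. The summed H4 level in PGCLC was 2.15 times that in ESC in the median line, and the summed H2B level 1.52 times. The H2A sum barely differed between EpiLC and PGCLC, at 1.06 times in the median line. Of all members, 17 were higher in PGCLC than in ESC without overlap in 7 or more lines (35.1% of all genes) and 0 were lower (21.1%). Markers of mesoderm moved with the PGCLC stage. Their summed level (T, Mixl1 and Mesp1, 3 of 3 called higher in PGCLC than in EpiLC) was 65.3 to 1578 TPM in PGCLC and at most 4.09 TPM elsewhere. The fibroblast markers summed to 8.08 to 275.3 TPM in PGCLC and 24.2 to 44.9 TPM in EpiLC, with 2 of the 3 tested (Col1a1 and Col1a2) called higher and Thy1 called lower in PGCLC, while Postn was at 0 in 9 of 18 PGCLC libraries. The part of such cells in the histone differences was not tested.

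**Figure D3:**
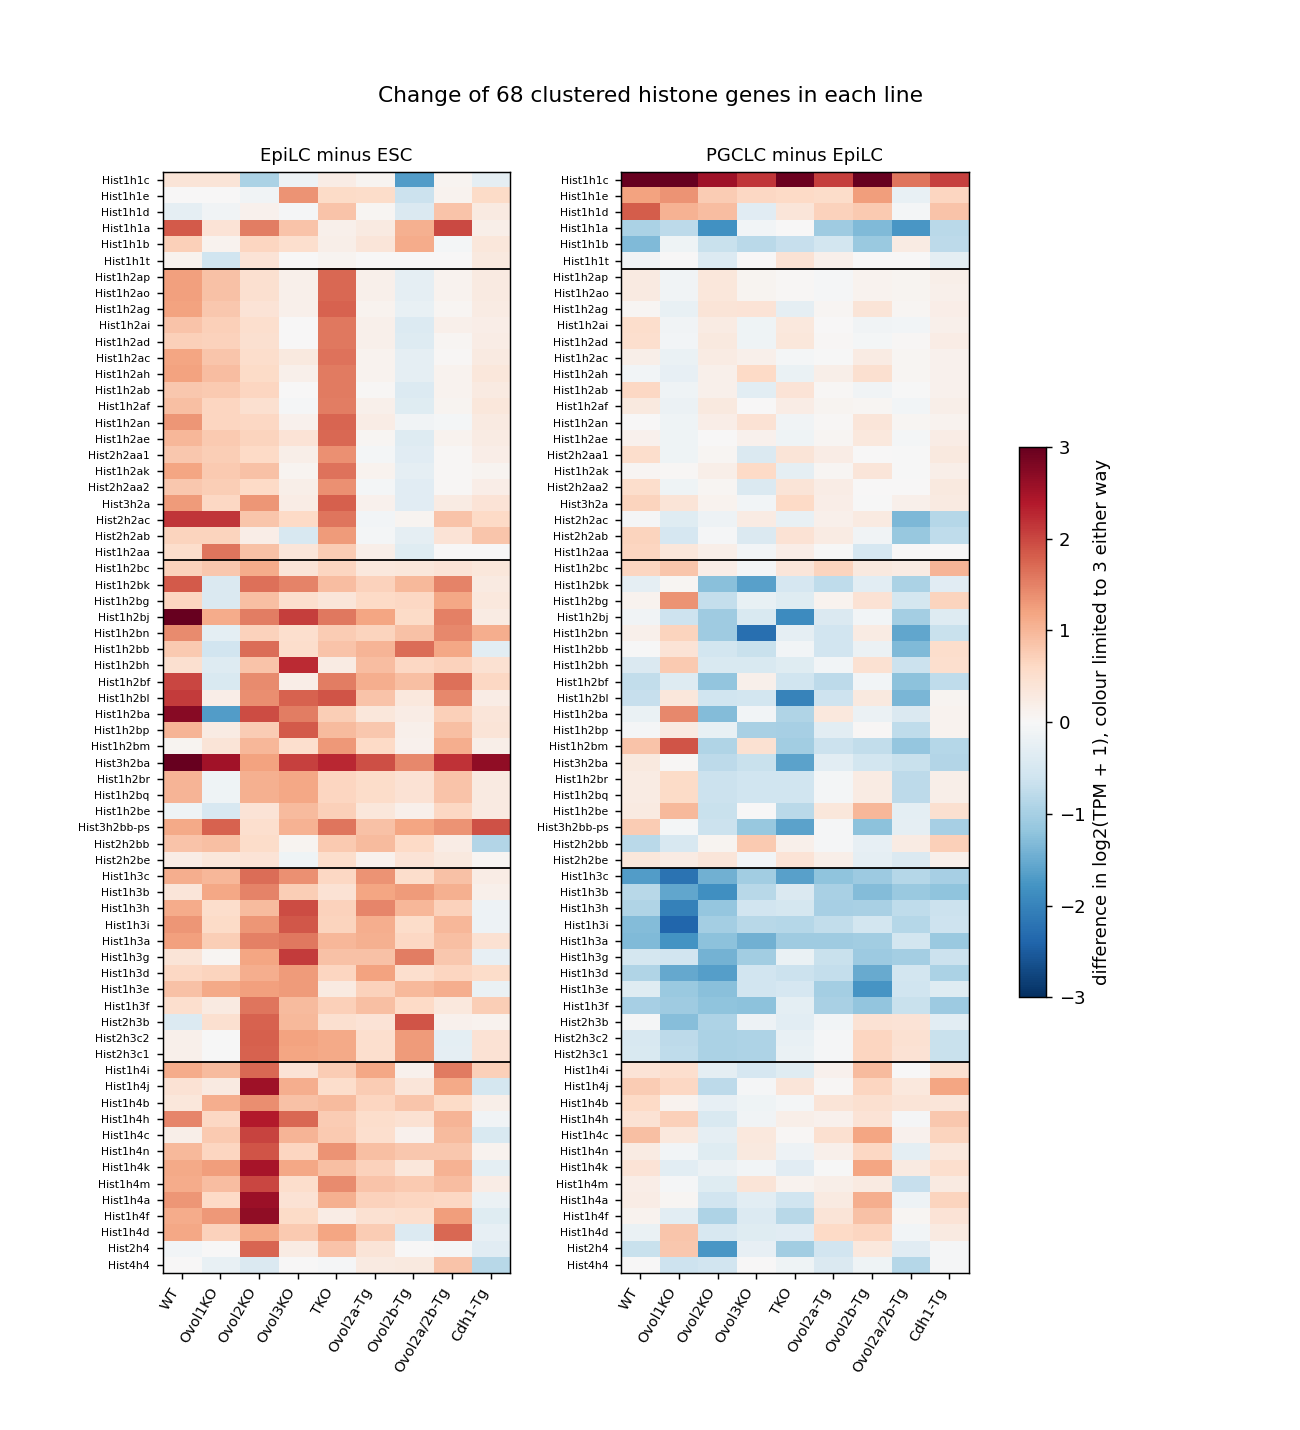
Difference in log2(TPM + 1) of each of the 68 members (rows, by class) in each of 9 lines (columns) from ESC to EpiLC (left) and from EpiLC to PGCLC (right), with red for higher, blue for lower and the colour limited at 3. Most of the left panel is red, while on the right Hist1h1c is red in 9 of 9 lines and the H3 block is mostly blue.

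The promoters of 5 H1 genes are shown because these genes differed in opposite directions between EpiLC and PGCLC. The 130 bases upstream of each start are given from RefSeq (GRCm38.p6), with matches to AAACACA in capitals, and likewise matches to the CCAAT box on either strand and to the TATA box letters TATAAA. That of Hist1h1c lies at chr13:23738677-23738806 on the plus strand.
Hist1h1c: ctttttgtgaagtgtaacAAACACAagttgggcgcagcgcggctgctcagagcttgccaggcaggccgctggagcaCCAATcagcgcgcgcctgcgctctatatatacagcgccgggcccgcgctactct
Hist1h1d: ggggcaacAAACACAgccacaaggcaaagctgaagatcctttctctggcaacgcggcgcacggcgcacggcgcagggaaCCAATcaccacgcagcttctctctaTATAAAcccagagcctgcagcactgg
Hist1h1e: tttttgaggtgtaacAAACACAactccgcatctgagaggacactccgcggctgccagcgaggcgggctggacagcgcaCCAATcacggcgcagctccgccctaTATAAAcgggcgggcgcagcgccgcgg
Hist1h1b: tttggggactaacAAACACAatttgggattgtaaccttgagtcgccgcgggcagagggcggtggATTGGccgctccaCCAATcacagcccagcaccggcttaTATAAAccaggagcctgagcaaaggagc
Hist1h1a: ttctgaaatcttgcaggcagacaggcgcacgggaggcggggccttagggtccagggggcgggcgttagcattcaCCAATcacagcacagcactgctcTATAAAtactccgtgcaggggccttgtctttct
Over the 250 bases upstream of each start and both strands, AAACACA was present in 5 of 6 H1 promoters and in 9 of the 62 member promoters that matched RefSeq, against 6.2% of 27025 promoters. It was absent from the window of Hist1h1a, present in that of Hist1h1b, which was also lower in PGCLC, and present in the windows of Hist1h1c, Hist1h1d and Hist1h1e. CCAAT was present in 82.3% of member promoters against 34.5% of all, TATAAA in 46.8% (29) against 3504 of all 27025, and ATGCAAAT in 21.0% against 1.6%. The 13 promoters with ATGCAAAT were those of 7 H2A and 6 H2B genes. These matches describe letters, not binding.

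The lines were then compared with WT at each stage. The 24 comparisons of 3 stages share the WT libraries of a stage, so that a WT library that stands apart enters 8 of them. In ESC of the lines with KO in their label, 2 members were higher and 0 lower in Ovol1KO (0.291% and 0.25% of all genes), 2 and 0 in Ovol2KO (0.77% and 2.59%), 1 and 3 in Ovol3KO (0.652% and 1.19%) and 3 and 0 in TKO (1.6% and 2.48%). In the lines with Tg in their label, 3 members were higher and 0 lower in Ovol2a-Tg (2.5% and 2.46% of all genes), 8 and 1 in Ovol2b-Tg (1.73% and 3.82%), 2 and 3 in Ovol2a/2b-Tg (1.48% and 2.84%) and 7 and 3 in Cdh1-Tg (2.0% and 4.39%). Most were higher than WT. Hist1h2bn was called higher in 4 lines, at 3.36 and 1.61 TPM in WT ESC, and Hist1h2ba in 5. Hist1h2ba reached 3.90 and 11.2 TPM in Ovol1KO, 3.85 and 5.30 TPM in TKO and 5.78 and 6.54 TPM in Ovol2b-Tg. The H2A gene Hist1h2ah was at 158 and 81.2 TPM in WT ESC and at 338 and 345 TPM in Cdh1-Tg, a difference of 1.58 ± 0.40. Of the 19 named higher calls in ESC, 17 were lost without WT ESC replicate 2 (limma adjusted p = 0.102 to 0.311), with differences of 0.59 to 2.07 remaining, so some stayed large. With only the WT and line libraries of a comparison in the fit, limma called 0 members in 5 of the 8 ESC comparisons. In Ovol3KO ESC, Hist1h2bh was at 0.901 and 0 TPM against 5.56 and 3.99 TPM in WT, lower by -2.05 ± 0.36 on the log2 scale (limma adjusted p = 0.0018), with Hist1h3d and Hist1h3h also called lower. The call of Hist1h3d was lost without Ovol3KO ESC replicate 1 or WT ESC replicate 2 (-1.17 and -1.24, limma adjusted p = 0.11 for both). That of Hist1h3h was lost without either Ovol3KO ESC library or without WT ESC replicate 1 (-0.75 to -1.47, limma adjusted p = 0.072 to 0.26).

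In EpiLC few members differed. In EpiLC of the lines with KO in their label, 0 members were higher and 2 lower in Ovol1KO (0.312% and 0.173% of all genes), 1 and 0 in Ovol2KO (0.569% and 0.853%), 0 and 1 in Ovol3KO (1.73% and 1.12%) and 0 and 0 in TKO (1.46% and 0.832%). In the lines with Tg in their label, 0 members were higher and 1 lower in Ovol2a-Tg (1.52% and 0.541% of all genes), 0 and 1 in Ovol2b-Tg (1.15% and 0.52%), 0 and 5 in Ovol2a/2b-Tg (2.23% and 2.28%) and 0 and 5 in Cdh1-Tg (3.62% and 2.76%). In TKO EpiLC, limma gave 5 members an unadjusted p under 0.05 and limma-voom called 0. Hist1h2bj was at 20.4 and 33.4 TPM in Ovol2KO EpiLC, above the 12.2 and 12.3 TPM of WT, and was called higher by 1.03 ± 0.24. This call was lost without Ovol2KO EpiLC replicate 2 (0.69) and also without WT EpiLC replicate 1 (1.03). Hist1h4d, an H4 gene at 14.3 and 9.80 TPM in WT EpiLC, was at 4.09 and 3.89 TPM in Cdh1-Tg EpiLC and was called lower by -1.36 ± 0.36.

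In PGCLC of the lines with KO in their label, 0 members were higher and 0 lower in Ovol1KO (0.493% and 0.173% of all genes), 0 and 2 in Ovol2KO (4.11% and 4.07%), 0 and 9 in Ovol3KO (4.34% and 8.5%) and 1 and 3 in TKO (5.58% and 4.95%). In the lines with Tg in their label, 0 members were higher and 3 lower in Ovol2a-Tg (2.09% and 1.33% of all genes), 2 and 1 in Ovol2b-Tg (5.16% and 3.14%), 0 and 13 in Ovol2a/2b-Tg (4.68% and 2.95%) and 0 and 5 in Cdh1-Tg (5.56% and 4.3%). In Ovol1KO PGCLC, limma gave 5 members an unadjusted p under 0.05 and limma-voom called 0. Nearly all calls were lower than WT, the exceptions being Hist1h3i in TKO and the indistinguishable Hist2h3c1 and Hist2h3c2 in Ovol2b-Tg. These higher calls were each lost on leaving out any of 3 single libraries: Hist1h3i down to 0.61 (limma adjusted p = 0.28) without WT PGCLC replicate 2, and Hist2h3c1 down to 0.71 (limma adjusted p = 0.34) without Ovol2b-Tg PGCLC replicate 2. Several lower calls were also lost without WT PGCLC replicate 2, a library shared by all these comparisons. They were Hist1h1a and Hist3h2bb-ps in Ovol2KO, Hist3h2bb-ps in Ovol2b-Tg, Hist1h2bn in Ovol3KO, and Hist1h2bj and Hist3h2ba in TKO. Hist1h1c and Hist2h2aa1 in Ovol2a-Tg were lost too. Differences of -0.62 to -1.90 remained. The members' median was -0.60 in Ovol2a/2b-Tg, against 0.03 for all genes, and -0.41 in Ovol3KO, against -0.12. Hist1h1c, the member that rose most into PGCLC, was called lower than WT in 3 lines. It was at 5.98 and 11.2 TPM in Ovol3KO PGCLC (-1.55 ± 0.27, limma adjusted p = 2.9e-04), at 6.90 and 9.74 TPM in Ovol2a/2b-Tg (-1.55 ± 0.27, limma adjusted p = 4.7e-04), and at 12.3 and 12.0 TPM in Ovol2a-Tg (-1.04 ± 0.27, limma adjusted p = 0.017). All 6 of these libraries lay below both WT libraries. The call in Ovol2a-Tg was lost without WT PGCLC replicate 2 (-0.89, limma adjusted p = 0.14), and also without either Ovol2a-Tg PGCLC library (-1.06 and -1.02, limma adjusted p = 0.065 and 0.11).

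In Ovol2a/2b-Tg PGCLC, Hist1h1d and Hist1h1e, the other H1 genes that rose in WT, were also called lower, at 0.678 and 1.35 TPM and at 1.01 and 0.334 TPM, values of 1 to 4 reads. The H2A gene Hist3h2a was at 30.1 and 32.4 TPM in Ovol2a/2b-Tg and 41.8 and 36.3 TPM in Cdh1-Tg, against 69.7 and 109 TPM in WT PGCLC. It was called lower in both, by -1.45 ± 0.28 and -1.14 ± 0.28. In Ovol3KO PGCLC, Hist1h2bn was at 4.19 and 0 TPM against 6.84 and 11.7 TPM in WT (-2.13 ± 0.64). This call was lost without Ovol3KO PGCLC replicate 2 (-0.94) and also without WT PGCLC replicate 2 (-1.78). In TKO PGCLC, Hist3h2ba was at 0 and 3.96 TPM against 7.29 and 10.2 TPM in WT (-2.11 ± 0.58). This call was lost without TKO PGCLC replicate 1 (-0.96) and also without WT PGCLC replicate 2 (-1.90).

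The change from EpiLC to PGCLC in each line was tested against that change in WT. Called members numbered 0 in Ovol1KO (0.576% of all genes called), 0 in Ovol2KO (7.71%), 2 in Ovol3KO (16.1%), 1 in TKO (9.41%), 0 in Ovol2a-Tg (3.01%), 1 in Ovol2b-Tg (7.6%), 4 in Ovol2a/2b-Tg (7.07%) and 0 in Cdh1-Tg (9.61%). In the 4 lines with 0, limma gave 6, 3, 0 and 2 members an unadjusted p under 0.05 and limma-voom called 0 in each. The rise of Hist1h1c into PGCLC was not called different from that of WT in any of the 8 lines.

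The largest differences between lines were in 3 H2A genes, Hist2h2ac, Hist2h2ab and Hist1h2aa, which were near 0 in all 12 libraries of Ovol2a/2b-Tg and Cdh1-Tg. Hist2h2ac (chromosome 3, 96220361 to 96220880, minus strand) and Hist2h2ab (96219865 to 96220308, plus strand) are neighbours, and Hist1h2aa (chromosome 13, 23934462 to 23934851) is known as the testis-specific H2A. Hist2h2ac was at 0 to 2.86 TPM in these lines, against 4.14 to 58.8 TPM in the other 42 libraries. Hist2h2ab was at 0 to 2.04 TPM against 9.41 to 57.4 TPM. Hist1h2aa was at 0 TPM in 12 of 12 libraries against 2.14 to 18.3 TPM. The 2 sets of libraries did not overlap for any of the 3 genes, at any stage.

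In PGCLC, Hist2h2ac was at 42.3 and 51.1 TPM in WT, 0 and 0.559 TPM in Ovol2a/2b-Tg, and 0.682 and 0 TPM in Cdh1-Tg. The differences from WT were -5.25 ± 0.29 and -5.19 ± 0.29 (limma adjusted p = 1.9e-08 and 1.3e-08). Hist2h2ab was at 38.5 and 57.4 TPM in WT, 0 TPM in both Ovol2a/2b-Tg libraries, and 0 and 0.425 TPM in Cdh1-Tg. It was at least 26.6-fold lower in Ovol2a/2b-Tg than in WT, taking 3 reads per library as the floor, and differed by -5.33 ± 0.27 in Cdh1-Tg (limma adjusted p = 4.6e-09). Hist1h2aa was at 7.46 and 13.2 TPM in WT PGCLC, and was at least 5.92-fold lower in Ovol2a/2b-Tg and at least 8.37-fold lower in Cdh1-Tg. Summed over the 6 libraries of a line, Hist2h2ac had 13 and 14 reads, Hist2h2ab 8 and 7, and Hist1h2aa 0 and 0.

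The 3 genes were low at every stage and so were called in all 6 comparisons of these lines with WT. In ESC the call of Hist2h2ac was lost without WT ESC replicate 1 (-1.62 in Ovol2a/2b-Tg and -1.80 in Cdh1-Tg). It was also lost without ESC replicate 1 of the line itself (-2.39 and -2.16). Hist2h2ab was lower in 3 further comparisons. It was at 13.9 and 14.0 TPM in Ovol2a-Tg PGCLC (-1.68 ± 0.27) and at 20.9 and 14.9 TPM in Ovol3KO PGCLC (-1.37 ± 0.27), and it was also called lower in Ovol2a-Tg EpiLC (-1.27 ± 0.28), a call lost without Ovol2a-Tg EpiLC replicate 1 (-1.02, limma adjusted p = 0.069). Over all 24 comparisons it was called in 9, Hist1h2aa in 7 (6 lower, and 1 higher in Ovol2b-Tg ESC) and Hist2h2ac in 6.

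**Figure D4:**
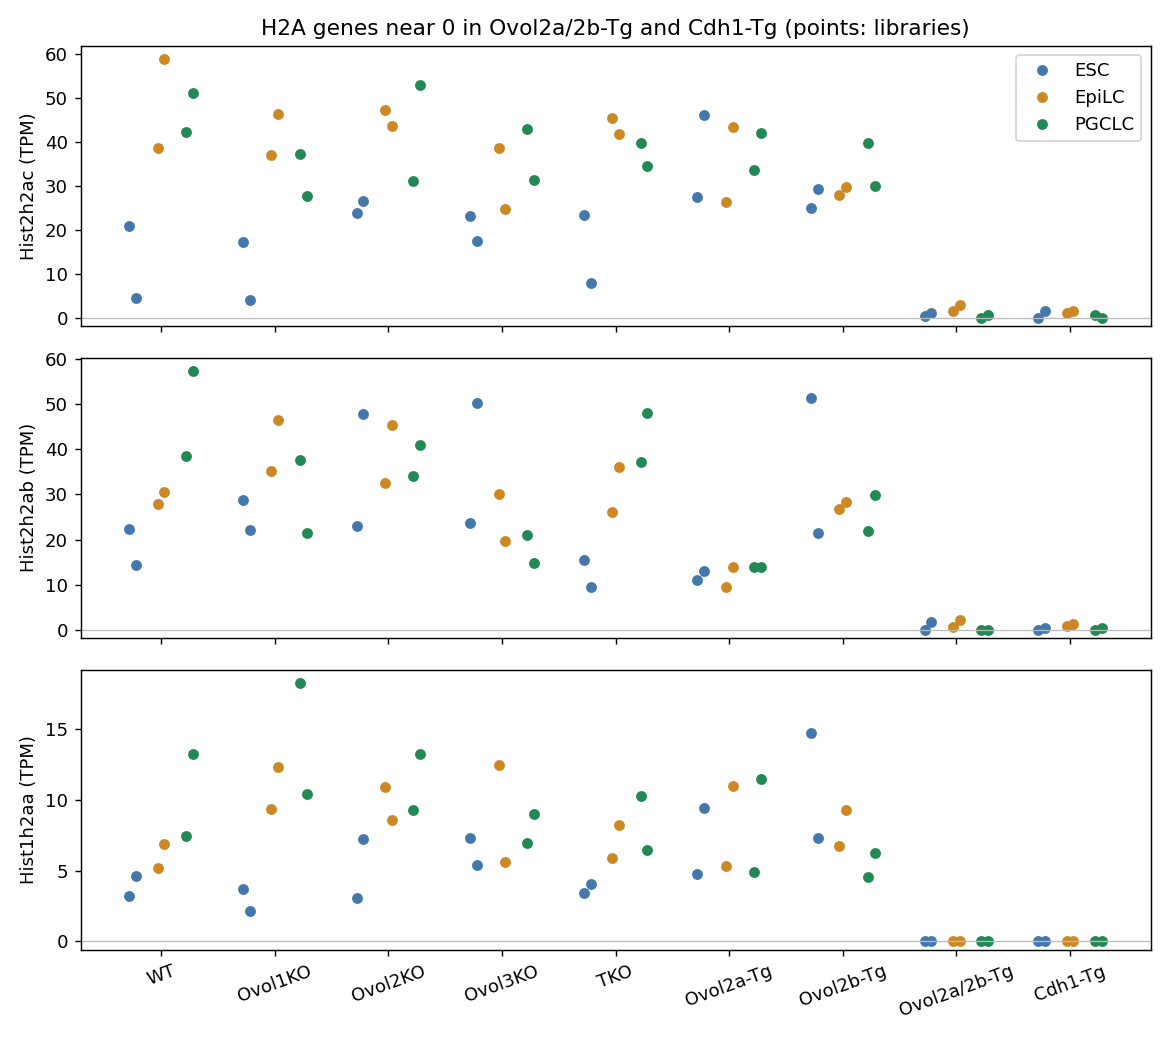
TPM of Hist2h2ac (top), Hist2h2ab (middle) and Hist1h2aa (bottom) in each of the 54 libraries, by line and stage. All 12 libraries of Ovol2a/2b-Tg and Cdh1-Tg lie at or near 0, at most 2.86 TPM, and below every library of the other 7 lines.

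These 3 genes are among the H2A genes least like the abundant Hist1h2ap in coding sequence, as the first 90 coding bases show, with bases that differ from Hist1h2ap in capitals. The abundant Hist1h2ag is given for comparison.
Hist1h2ap: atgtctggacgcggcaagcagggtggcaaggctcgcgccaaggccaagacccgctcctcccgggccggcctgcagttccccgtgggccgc
Hist1h2ag: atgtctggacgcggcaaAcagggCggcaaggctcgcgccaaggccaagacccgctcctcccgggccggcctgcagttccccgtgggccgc
Hist2h2ac: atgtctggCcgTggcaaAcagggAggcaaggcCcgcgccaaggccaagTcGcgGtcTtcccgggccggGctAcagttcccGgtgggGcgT
Hist2h2ab: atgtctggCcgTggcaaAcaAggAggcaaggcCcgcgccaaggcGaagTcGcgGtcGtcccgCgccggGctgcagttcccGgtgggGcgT
Hist1h2aa: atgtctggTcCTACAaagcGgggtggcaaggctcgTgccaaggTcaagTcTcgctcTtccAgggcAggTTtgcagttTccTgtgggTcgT
Over the full shared coding length, identity to Hist1h2ap was 99.2% for Hist1h2ag, 89.2% for Hist2h2ac, 83.5% for Hist2h2ab and 82.3% for Hist1h2aa. Hist3h2a, at 88.5%, was less like Hist1h2ap than Hist2h2ac was, and its lowest level in any of the 54 libraries was 9.02 TPM. Hist2h2aa1, at 91.3%, had a lowest level of 29.2 TPM. Transcripts of Hist2h2ac shared 37.4% of their 50-base words with other members, those of Hist2h2ab 21.0% and those of Hist1h2aa 2.3%, against 93.1% for Hist1h2ap. These shares count exact words in other members only, so inexact matches and genes outside the family are not covered. Abundant and near-identical members such as Hist1h2ap were not near 0 in these lines. How reads matching several genes were counted was not tested. Over all genes tested, 22 of 14416 (0.153%) were below all 42 other libraries in the 12 libraries of these lines, the 3 members and 19 others, and 3 genes (0.0208%) were above. Of the 19, 5 have symbols of retrogene or pseudogene copies (Aldoart1, Cks1brt, Pin1rt1, Rpl37rt and Rpl31-ps12), and whether the others are such copies was not examined. A difference in how the libraries of these lines were processed cannot be told apart from the line itself, and was not tested. The part of reads shared between similar genes in these values was not tested.

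Genes that handle histone messengers and histones were set beside the family, from lists chosen with earlier results known. Of 20 factors of histone messenger synthesis and processing, 0 were called by limma in any of the 3 stage comparisons over 9 lines. At any size of difference, again with a limma adjusted p under 0.05, 8 were higher and 6 lower from ESC to EpiLC. From EpiLC to PGCLC, 8 were higher and 4 lower. Slbp itself differed by 0.14 and 0.21 in these steps. Of 20 histone chaperones, limma called 0 in either of these steps and 1 between ESC and PGCLC, Hat1, a histone acetyltransferase, which was lower in PGCLC by -1.19. Among 11 tested genes of variant histones, H2afy, the gene of macroH2A, fell by 3.26 on the log2 scale from ESC to EpiLC. It rose by 2.83 from EpiLC to PGCLC, where the linker histone genes H1f0 and H1fx rose by 1.56 and 1.17. So 3 linker histone genes, the clustered Hist1h1c and the variants H1f0 and H1fx, were called higher in PGCLC than in EpiLC. Of 25 S phase genes, 1 was called in each of these steps: Ccne1, the gene of cyclin E1, rose by 1.27 and then fell by 1.17. Between ESC and PGCLC, where 10 members of the family were called higher, 3 S phase genes were called lower, namely Pola1 (-1.06), Tk1 (-1.04) and Ung (-1.02). None of 18 G2 and mitosis genes was called in any of the 3 stage comparisons. At any size of difference 14 of the 25 S phase genes were lower in PGCLC than in EpiLC and 7 higher, beside the lower H3 genes. Whether the share of cells in S phase differed was not tested.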

How the data were processed

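RNA from 54 libraries (9 lines, 3 stages, 2 libraries each) was poly(A)-selected and made into directional libraries with 12 cycles of PCR, per the labels' protocols. The submitters' processing notes name HISAT2, featureCounts, edgeR and mm10, with no versions or settings. The authors deposited TPM per gene, with no counts. Whole reads could be recovered from the TPM steps in 99.73% of genes (17924 of 17973, tolerance 0.02 read), so depth is known. Precision is set by reads: with 2 libraries a group, an exact permutation test of 1 gene cannot go below p = 0.33, so tests were fitted across all genes.

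Values were taken as log2(TPM + 1). Genes with at least 1 TPM in at least 2 libraries were kept (14416), and limma 3.58.1 in R 4.3.3 (trend and robust moderation) was fitted to all 54 libraries for stage comparisons and interactions, and to the 18 libraries of a stage for lines against WT. Tables and figures were made with pandas 2.3.3 and matplotlib 3.10.9. A gene was called at a Benjamini-Hochberg adjusted p under 0.05 over all genes and a log2 difference of at least 1. The members and the lists of related genes were chosen with earlier results of these data known. Genes are named where they have the 8 highest means, lead a class or cluster, have the largest called differences of a comparison (up to 3 each way), or were called in at least 6 of 24 line comparisons. The comparisons over 9 lines, limma-voom on recovered reads and the fits without a line were chosen after seeing the data. Simulated data with 200 genes changed by a log2 difference of 2 gave back 97.5% of them (WT EpiLC against ESC, 13674 genes) and 96.5% (TKO against WT ESC, 13691 genes), with 13 and 10 other genes called. The changed genes were drawn above a minimum mean level, and every simulated group had the same spread. These rates therefore do not describe members with few reads or differences near the threshold. Alternatives were pseudocount 0.1, no filter, quantile scaling, a replicate block, only the compared groups, and leaving out each library. None of the 22 listed non-polyadenylated RNAs matched a row of the table, so that check of poly(A) selection was not used here.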

Additional observations from a re-analysis of the deposited data

Results flagged for a closer look

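For 8 gene and line pairs, the change from EpiLC to PGCLC differed from that of WT by limma's test of the difference itself. Values are log2 differences of the 2 changes, and most rest on few reads.

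Hist3h2bb-ps, annotated as an H2B pseudogene, accounted for 3 of them. Its change differed from that of WT by -1.91 in Ovol3KO (limma adjusted p = 0.031), by -2.38 in TKO (0.014) and by -2.01 in Ovol2b-Tg (0.047). In WT it was at 0 and 3.88 TPM in EpiLC and at 1.81 and 4.06 TPM in PGCLC. It was at 1.55 and 2.39 TPM in Ovol3KO EpiLC and at 0.777 and 0 TPM in PGCLC, and at 2.09 and 2.00 TPM in TKO EpiLC and at 0 TPM in both PGCLC libraries. In Ovol2b-Tg it was at 1.87 and 2.66 TPM and then at 0.887 and 0 TPM. The WT EpiLC library at 0 enters all 3 differences.

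Hist1h2bn, an H2B gene, differed by -2.39 in Ovol3KO (limma adjusted p = 0.0063). It was at 11.4 and 8.47 TPM in Ovol3KO EpiLC and at 4.19 and 0 TPM in PGCLC, against 5.41 and 11.7 TPM and then 6.84 and 11.7 TPM in WT.

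The other pairs were in Ovol2a/2b-Tg. Hist1h1b differed by 1.58 (limma adjusted p = 0.034), from 0 and 0.563 TPM in EpiLC to 0.332 and 0.659 TPM in PGCLC, against 2.94 and 0.605 TPM and then 0 TPM in both libraries of WT. Hist1h2bq and Hist1h2br, which have the same reads and count as 1 measurement, each differed by -1.04 (limma adjusted p = 0.039). Hist1h2bq was at 2.73 and 2.53 TPM in EpiLC and at 1.18 and 1.05 TPM in PGCLC, against 2.06 and 2.92 TPM and then 2.58 and 3.78 TPM in WT. Hist2h2ab differed by -1.81 (limma adjusted p = 0.029), from 0.586 and 2.04 TPM to 0 TPM in both libraries, while WT went from 27.9 and 30.5 TPM to 38.5 and 57.4 TPM, so it was near 0 at both stages of that line.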

How the results depend on the processing

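Over 84 results for named genes, 889 alternative values kept their direction, 684 on the same side of the threshold and 205 no longer past it. The summed level had a median of 4278 TPM, and 3636 TPM without its most abundant member. Counts of called members that moved by more than 1.5 times follow. With pseudocount 0.1 the comparisons over 9 lines gave 28 (EpiLC against ESC), 16 (PGCLC against EpiLC) and 20 (PGCLC against ESC); EpiLC gave 1 in Ovol1KO and 2 in Ovol2KO, Ovol3KO and Ovol2a-Tg, PGCLC 1 in Ovol2KO and 0 in Ovol2b-Tg, and the differences in change 1 in Ovol2a/2b-Tg and 0 in Ovol2b-Tg. With no filter, ESC gave 0 in Ovol1KO, TKO and Ovol2a-Tg, 1 in Ovol2KO and Ovol3KO, 3 in Ovol2a/2b-Tg and Ovol2b-Tg and 5 in Cdh1-Tg, EpiLC 0 in Ovol1KO, Ovol3KO and Ovol2b-Tg and 3 in Ovol2a/2b-Tg, PGCLC 2 in TKO and 1 in Ovol2b-Tg, and the difference in change 0 in Ovol2b-Tg. Quantile scaling shifted the median of all genes by -0.20 to 0.18 and gave 6 in TKO ESC, 5 in Ovol2a-Tg ESC, 0 in Ovol2KO EpiLC, 2 in Ovol2a-Tg EpiLC, 6 in Ovol2a-Tg PGCLC, 1 and 0 for the differences in change of Ovol3KO and Ovol2b-Tg, and 11 (PGCLC against EpiLC) and 2 (PGCLC against ESC) over 9 lines.

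limma-voom on recovered reads gave 0 in Ovol1KO ESC, 1 in Ovol2KO, Ovol3KO and TKO ESC, 4 in Ovol2b-Tg ESC, 6 in Cdh1-Tg ESC, 0 in Ovol1KO, Ovol2KO and Ovol2b-Tg EpiLC, 1 in Ovol2KO PGCLC, 2 in TKO PGCLC, 7 in Ovol2a-Tg PGCLC, 6 in Ovol2b-Tg PGCLC, 4 and 2 for the differences in change of Ovol3KO and Ovol2a/2b-Tg, and 13 and 12 over 9 lines (EpiLC against ESC and PGCLC against EpiLC). With only the compared groups fitted, which leaves 2 residual degrees of freedom among libraries, 0 were called in ESC of Ovol1KO, Ovol2KO, Ovol3KO, TKO and Ovol2b-Tg and in EpiLC of Ovol1KO, Ovol2KO, Ovol3KO and Ovol2b-Tg, and 1 in TKO PGCLC. Without both lines with mismatched tags, 17 were called between ESC and EpiLC over 9 lines. The cause of these shifts was not tested. Same-numbered libraries did not pair: the correlation of their deviations ran from -0.13 to 0.20 over 26 comparisons and passed 0.1 in 2. With the replicate number as a block, the difference in change of Ovol3KO gave 5, EpiLC against ESC over 9 lines 11 and Ovol2KO EpiLC 2; the block could not be fitted for Ovol2b-Tg EpiLC, whose columns carry no number.

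Leaving out 1 library or line at a time gave 8 to 35, 5 to 14 and 20 to 39 called members in the WT comparisons (EpiLC against ESC, PGCLC against EpiLC, PGCLC against ESC) and 4 to 17, 4 to 9 and 5 to 11 over 9 lines. In ESC it gave 0 to 4 in Ovol1KO, 0 to 7 in Ovol2KO, 2 to 12 in Ovol3KO, 1 to 6 in TKO, 0 to 11 in Ovol2a-Tg, 4 to 21 in Ovol2b-Tg, 3 to 11 in Ovol2a/2b-Tg and 3 to 13 in Cdh1-Tg. In EpiLC it gave 0 to 6, 1 to 5, 0 to 4, 0 to 4, 0 to 5, 0 to 4, 4 to 10 and 5 to 11 in the same order of lines, and in PGCLC 0 to 3, 0 to 5, 4 to 15, 2 to 6, 1 to 5, 0 to 8, 9 to 15 and 4 to 8. A group left with 1 library was assumed to vary like the others. Depth limits the low members: 25 of the 68 had a median under 10 reads.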
